A study of Mus musculus with 6 samples.

Results

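Developmental timing genes of cortical progenitors are genes whose level changes as the progenitors of the cerebral cortex age. There were 10 of them, chosen by name for their known role in this schedule and with earlier results of these data known. The early group named 6 genes, Lin28a, Lin28b, Igf2bp1, Igf2bp2, Igf2bp3 and Hmga2, and the late group 4, Nfia, Nfib, Nfix and Zbtb20. Each was read from the array row annotated to that gene symbol alone. Of the 10 genes, 8 had such a row and all 8 were bright enough to be tested, among 16724 genes tested in all. Igf2bp1 lay only on a row shared with an miRNA gene and Igf2bp2 was on no annotated row, so neither was analysed here.

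Cortices were dissected from mouse embryos at E12.5, and total RNA was measured on 1 Affymetrix whole-transcript array per embryo. The control group held 3 embryos, whose alleles the labels do not specify further. The other group held 3 Lats1/Lats2 DKO (double knock-out) embryos, with loxP-flanked Lats1F/F and Lats2F/F alleles and a Nestin-Cre transgene. Nestin-Cre recombines in neural progenitors and their descendants, while blood, vessel and meningeal cells in a dissected cortex come from other lineages. Lats1 and Lats2 are the Hippo pathway kinases that restrain the coactivators YAP and TAZ. The labels describe the samples as untreated and from independent embryos, and the comparison asks which transcripts differ when the kinases are lost.

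Cortical progenitors first produce neurons and later glia, and they pass through this sequence on an internal schedule. Lin28a and Lin28b encode RNA-binding proteins that block maturation of the let-7 miRNAs, which in turn repress Hmga2 and Igf2bp mRNAs, so the early genes form a circuit that is switched off as let-7 accumulates. Hmga2 binds AT-rich DNA and sustains self-renewal of young neural stem cells, and the Igf2bp proteins stabilise and localise mRNAs. The nuclear factor I genes Nfia, Nfib and Nfix encode DNA-binding proteins that promote glial and later progenitor programmes and are also present in young cortical neurons, and Zbtb20 encodes a zinc finger repressor of late progenitors and the hippocampal primordium.

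The mean levels of the early and the late genes lay on opposite sides of control. All 4 measured early genes had a higher mean in DKO cortex and all 4 late genes a lower one, but only Hmga2 passed the test over all genes. Its signal was 1.42-fold higher in DKO, while Nfia, Nfix and Nfib were 1.27-fold, 1.22-fold and 1.19-fold lower without passing. By the limma test with Benjamini-Hochberg adjustment over 16724 genes (adjusted p under 0.05), 1 of the 8 timing genes rose and 0 fell, where 1.36% of all genes rose and 0.359% fell. At an unadjusted limma p under 0.05, Lin28a and Hmga2 were higher and Nfia, Nfib and Nfix lower, and such a p was reached by 2604 genes in all. The median log2 fold change was 0.21 over the early genes and -0.27 over the late genes, beside -0.03 over all genes tested. Values here are log2 array signals and differences are DKO minus control on that scale.

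**Figure D1:**
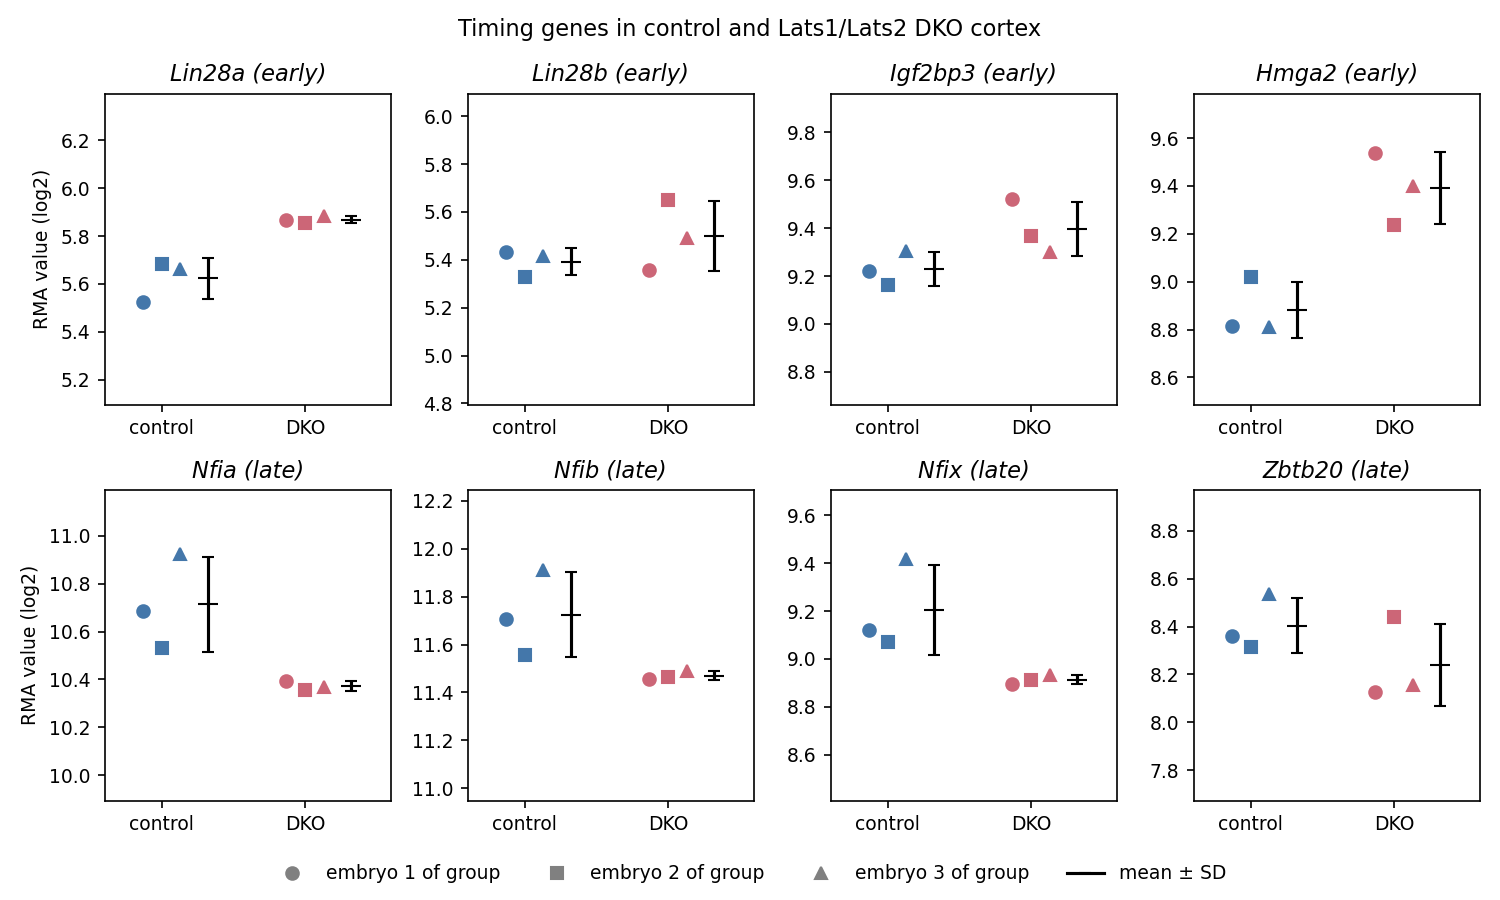
Log2 signal of the 8 measured timing genes in each of 3 control and 3 DKO embryos, with the mean and SD of each group beside the points. Every panel spans the same log2 range. The DKO points of Hmga2 and Lin28a lie above all control points, and those of Nfia, Nfib and Nfix lie below all control points and close together.

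Lats1 was lower in every DKO embryo, and the arrays had like signal distributions. Array medians lay between 5.94 and 5.97 and correlations between arrays over all rows between 0.978 and 0.994. Lats1 stood at 8.81, 8.34 and 8.98 in controls and at 7.82, 7.82 and 7.74 in DKO. It fell by limma (log2 fold change -0.91). That call was lost without control 1, control 3, DKO 1 or DKO 3 (limma adjusted p up to 0.0875). Lats2 was not lower but slightly higher in every DKO embryo (7.16, 6.84 and 7.11 against 7.36, 7.18 and 7.27). Its log2 fold change of 0.24 had an unadjusted limma p under 0.05 and did not pass. The positions of the probes relative to the deleted exons are not given in the sources used here, so the Lats2 row may check nothing. DKO 2 stood apart by markers of tissues other than cortex. The mean signal of 7 erythroid markers was 7.10 in DKO 2 and between 7.58 and 7.68 in the other 5 arrays, and that of 13 endothelial markers 7.01 against at least 7.48. Xist and 3 Y-linked genes showed 2 female and 1 male control embryos and 1 female and 2 male DKO embryos. Of 9 measured cortex identity genes, all were above the limit for dim rows, and their mean signal lay between 9.36 and 9.52 in controls and between 9.19 and 9.24 in DKO. By limma 0 of the 9 passed and 6 had an unadjusted p under 0.05, all lower. Such a p was reached by 2604 of 16724 genes tested, in either direction. Of the 9, 7 had every DKO array below every control, a separation seen in 13.4% of all genes tested. This list shares genes with lists below, so their counts are not independent. Eomes and Neurog2 are also among the intermediate progenitor genes, and Tbr1 is also named as a neuron marker.

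Hmga2 was the early gene that passed the test. Its signal was 8.82, 9.02 and 8.81 in the control embryos and 9.54, 9.24 and 9.40 in the DKO embryos. The groups did not overlap, and the lowest DKO array stood 0.22 above the highest control array. The means were 8.88 ± 0.12 (SD, n = 3) and 9.39 ± 0.15 (SD, n = 3), and the log2 fold change was 0.51 ± 0.09 (SE) with a 95% interval from 0.29 to 0.72. The limma adjusted p was 0.0373. The exact permutation p (two-sided) was 0.1 for Hmga2, Lin28a, Nfia, Nfib and Nfix, the smallest that 3 arrays against 3 allow, and 0.4, 0.2 and 0.3 for Lin28b, Igf2bp3 and Zbtb20. Only 1.28% of the genes tested had a larger log2 fold change.

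The call for Hmga2 did not hold in most fits with 1 array fewer. Leaving out control 1 gave a limma adjusted p of 0.147 and leaving out control 3 one of 0.141. It was 0.124 when DKO 1 was dropped and 0.118 when DKO 3 was dropped, and it stayed past the threshold without control 2 (0.0443) or DKO 2 (0.0213). The difference lay between 0.44 and 0.59 in these 6 fits. With embryo sex as a covariate, a setting added after the data were seen, the difference was 0.48 and the adjusted p 0.0913. Among female embryos the DKO embryo exceeded the control mean by 0.59, and among male embryos the DKO mean exceeded the control embryo by 0.37.

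The sequence upstream of Hmga2 is shown because Hmga2 was the timing gene that passed the test. It covers the 250 bases before the RefSeq gene start on the minus strand of chr10:120476470-120476719 in GRCm38.p6, written 5′ to 3′ with each TCTCT repeat in capitals:
Hmga2 upstream: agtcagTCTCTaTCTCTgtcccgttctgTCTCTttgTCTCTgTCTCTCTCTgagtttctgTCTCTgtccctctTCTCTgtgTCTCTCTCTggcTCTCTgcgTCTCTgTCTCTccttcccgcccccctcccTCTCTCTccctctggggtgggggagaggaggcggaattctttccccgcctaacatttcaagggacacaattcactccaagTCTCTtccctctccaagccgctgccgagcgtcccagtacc
The window held 18 matches of TCTCT, counted on both strands and with overlaps, and 0.0335% of 32851 RefSeq windows of the same length held at least as many. This motif was chosen after the sequence had been seen. Of the 10 named genes 8 had a RefSeq window. The TEAD motif CATTCC was found in none of these, on either strand, while 12.6% of all windows held it. The AP-1 motif TGANTCA and the NFI core TTGGC were each found in 1 of these 8 genes, Nfix, beside 6.75% and 41.5% of all windows. Each motif was searched on both strands. Only TCTCT matched upstream of Hmga2, so no matches of different motifs overlapped there, and a missing match says only that the letters are not in this window.

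Lin28a was also higher in every DKO embryo, by less. The control embryos stood at 5.53, 5.68 and 5.66 and the DKO embryos at 5.87, 5.85 and 5.88. The groups did not overlap, the SD of the DKO arrays was 0.01, and the gap between the groups was 0.17. The log2 fold change was 0.24 ± 0.07 (SE; 95% interval 0.09 to 0.39), and the limma adjusted p was 0.122, so the difference did not pass. The mean over 6 arrays lay only 0.73 above the limit for dim rows, 5.02, and no detection call was at hand.

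Its paralogue Lin28b differed less, and its mean also lay close to that limit, 0.43 above it. Controls stood at 5.43, 5.33 and 5.41 and DKO embryos at 5.36, 5.65 and 5.49, so the groups overlapped and DKO 2 was the highest array. The log2 fold change was 0.11 ± 0.08 (SE; 95% interval -0.08 to 0.30), and the limma adjusted p was 0.604. Without DKO 2 the log2 fold change was 0.03, and without DKO 1 it was 0.18.

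Igf2bp3, which encodes the mRNA-binding protein IMP3, was the measured member of its family. It stood at 9.22, 9.16 and 9.30 in control and 9.52, 9.37 and 9.30 in DKO embryos. The groups met at their edges, with DKO 3 at the level of control 3 and DKO 1 highest. The log2 fold change was 0.17 ± 0.08 (SE; 95% interval -0.01 to 0.34), and the limma adjusted p was 0.346. Without DKO 1 the log2 fold change was 0.10. In total 2 of the 4 early genes had all DKO arrays above all control arrays, a separation seen in 8.22% of all genes tested.

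**Figure D2:**
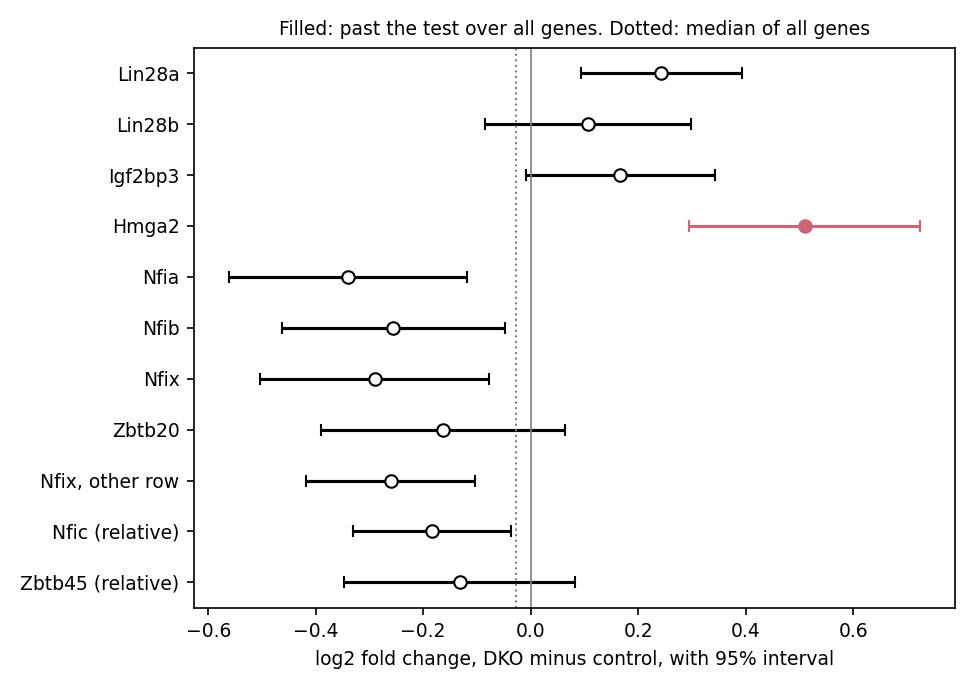
Log2 fold change (DKO minus control) of the timing genes, of a further Nfix row and of the relatives Nfic and Zbtb45, with 95% intervals from limma. Hmga2 is the filled point at 0.51. The intervals of Lin28a and of the Nfi genes lie off 0, but their adjusted p values did not pass the threshold.

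The late genes Nfia, Nfib and Nfix were lower in every DKO embryo than in any control embryo. Nfia stood at 10.69, 10.53 and 10.93 in controls and at 10.40, 10.36 and 10.37 in DKO. The DKO mean differed from control by -0.34 ± 0.10 (SE; 95% interval -0.56 to -0.12), and the limma adjusted p was 0.143. Only 1.29% of the genes tested had a lower log2 fold change. The DKO embryos were nearly alike, with an SD of 0.02, whereas the control SD was 0.20 and control 3 was the highest array.

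Nfib, the family member whose loss also delays maturation of the cortex and lung, had the same layout. Its values were 11.71, 11.56 and 11.91 in control and 11.45, 11.46 and 11.49 in DKO embryos. Here the groups were parted by only 0.07. The log2 fold change was -0.26 ± 0.09 (SE; 95% interval -0.46 to -0.05), and the limma adjusted p was 0.227.

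Nfix, which is linked to the later progenitor stages and to postnatal neural stem cells, was measured on 2 rows. On the brighter row controls stood at 9.12, 9.07 and 9.42 and DKO embryos at 8.89, 8.91 and 8.93, a difference of -0.29 ± 0.09 (SE; limma adjusted p 0.19). On the other row controls stood at 6.41, 6.36 and 6.35 and DKO embryos at 6.22, 6.07 and 6.05, a difference of -0.26 ± 0.07 (SE; limma adjusted p 0.158 in a fit over all rows with 1 symbol). The groups did not overlap on either row, but control 3 was the lowest control on the second row and the highest on the first, and the control SD was 0.03 there against 0.19. The rows thus gave a like difference and a different order of the control embryos.

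The remaining family member, Nfic, is outside the named set. It stood at 6.52, 6.42 and 6.40 in control and 6.25, 6.22 and 6.31 in DKO embryos. The groups did not overlap, and the difference was -0.18 ± 0.06 (SE; limma adjusted p 0.222). All 4 Nfi genes were therefore lower in each DKO embryo than in each control embryo, a separation seen in 13.4% of all genes tested, and none passed the test over all genes.

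Zbtb20 did not separate the groups. Controls stood at 8.36, 8.32 and 8.54 and DKO embryos at 8.13, 8.44 and 8.16, with DKO 2 above control 1 and control 2. The log2 fold change was -0.16 ± 0.10 (SE; 95% interval -0.39 to 0.06), and the limma adjusted p was 0.491. The log2 fold change was -0.26 without DKO 2, -0.11 without DKO 1 and -0.10 without control 3. Zbtb45, a related zinc finger gene, overlapped too, with a difference of -0.13 ± 0.09 (SE; limma adjusted p 0.561).

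The late differences were smaller when control 3 was left out. Without it the log2 fold changes of Nfia, Nfib and Nfix were -0.23, -0.16 and -0.18, and without control 2, the lowest control, they were -0.43, -0.34 and -0.36. The median of the 4 late genes was -0.17 without control 3. Within female embryos the differences of Nfia, Nfib and Nfix were -0.44, -0.32 and -0.34, and within male embryos -0.15, -0.10 and -0.17. The male control was control 2 alone and the female DKO embryo DKO 3 alone, while control 3 was female. Sex and the spread of the controls thus cannot be told apart here. In the medians by array the late genes stood at -0.04, -0.15 and 0.20 in controls relative to the control mean and at -0.29, -0.28 and -0.26 in DKO. The early genes stood at -0.04, 0.00 and 0.03 in controls and at 0.27, 0.24 and 0.18 in DKO.

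Most markers of neurons and of intermediate progenitors had lower means in DKO, as the Nfi genes did, though few passed the test. These rows come from whole cortex, in which fewer cells of a type and less RNA per cell cannot be told apart. All gene lists used here were drawn up with earlier results of these data known. Their counts beside the shares over all genes are therefore descriptions and not tests. Of 14 measured neuron markers 13 had a lower mean in DKO. By limma 0 of them passed and 8 had an unadjusted p under 0.05, all lower. Such a p was reached by 2604 of 16724 genes tested, in either direction. Their mean signal per array lay between 9.78 and 9.96 in controls and between 9.59 and 9.70 in DKO. Of 12 intermediate progenitor and neurogenic genes all were lower on average, and the mean signal lay between 8.25 and 8.46 in controls and between 7.84 and 7.97 in DKO. All 12 had an unadjusted limma p under 0.05 and every DKO array below every control, a separation seen in 13.4% of all genes tested. Of the 12, 4 fell, Mfng, Gadd45g, Hes6 and Btg2, where 0.359% of all genes fell, and 1 fell with the replicate block or with sex as a covariate. Mfng stayed past the threshold whichever array was left out. Hes6 (limma adjusted p up to 0.135) and Btg2 (up to 0.149) lost their call without any 1 array, and Gadd45g (up to 0.0974) without control 1, control 3, DKO 1 or DKO 3. Relative to the control mean, the mean of Nfia, Nfib and Nfix was -0.04, -0.16 and 0.20 in controls 1 to 3, that of the neuron markers -0.02, -0.08 and 0.10, and that of the intermediate progenitor genes -0.03, -0.09 and 0.12. Control 3 was thus highest and control 2 lowest in all of these. In DKO the neuron markers stood at -0.27, -0.16 and -0.23 and the Nfi mean at -0.30, -0.30 and -0.28. The intermediate progenitor genes stood at -0.50, -0.37 and -0.40. Among the DKO arrays both marker lists were highest in DKO 2, while the Nfi mean hardly varied. No marker can be at 0 on this scale, and the part of cell composition in the Nfi differences was not tested.

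Hem and choroid plexus markers, from the midline tissue beside the hippocampal primordium where Zbtb20 is known to be active, had higher means in DKO for 14 of 16 tested genes. Of these, 2 rose, Lmx1a and Ttr, and the mean signal lay between 6.09 and 6.35 in controls and between 6.46 and 6.78 in DKO. By unadjusted limma p, 10 of the 16 were under 0.05, all higher, and 6 had every DKO array above every control, where 1.36% of all genes rose and 8.22% were separated in this way. The mean of these markers was highest in DKO 2 among the DKO arrays, as was Zbtb20, but among controls it was highest in control 2 and lowest in control 3, where Zbtb20 was lowest and highest. Lmx1a lost its call without control 1, control 3 or DKO 1 (limma adjusted p up to 0.0583), and Ttr without any 1 control or DKO 1 (up to 0.141). Their part in the Zbtb20 values was not tested. Among 13 meningeal and mesenchymal markers, a source in which Hmga2 and Igf2bp genes are also active in embryos, 0 rose and 0 fell by limma, and 1 had an unadjusted p under 0.05. Their mean signal was 7.51, 7.40 and 7.23 in controls and 7.58, 6.91 and 7.33 in DKO, so the groups overlapped. Among the DKO arrays Hmga2 and these markers were both lowest in DKO 2, but among controls Hmga2 was highest in control 2 and the markers in control 1. Without DKO 2 the log2 fold change of Hmga2 was 0.59, and the part of these markers in it was not tested. Ventral telencephalic markers were lower on average (0 of 9 passed in limma, 3 at an unadjusted p under 0.05), between 7.03 and 7.43 in controls and between 6.88 and 7.13 in DKO. Of 9 tested microglia markers 0 passed in limma and 2 had an unadjusted p under 0.05. Their mean signal lay between 6.72 and 6.79 in controls and between 6.38 and 6.77 in DKO. The unadjusted counts in this paragraph stand beside 2604 of 16724 genes tested that had such a p, in either direction.

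**Figure D3:**
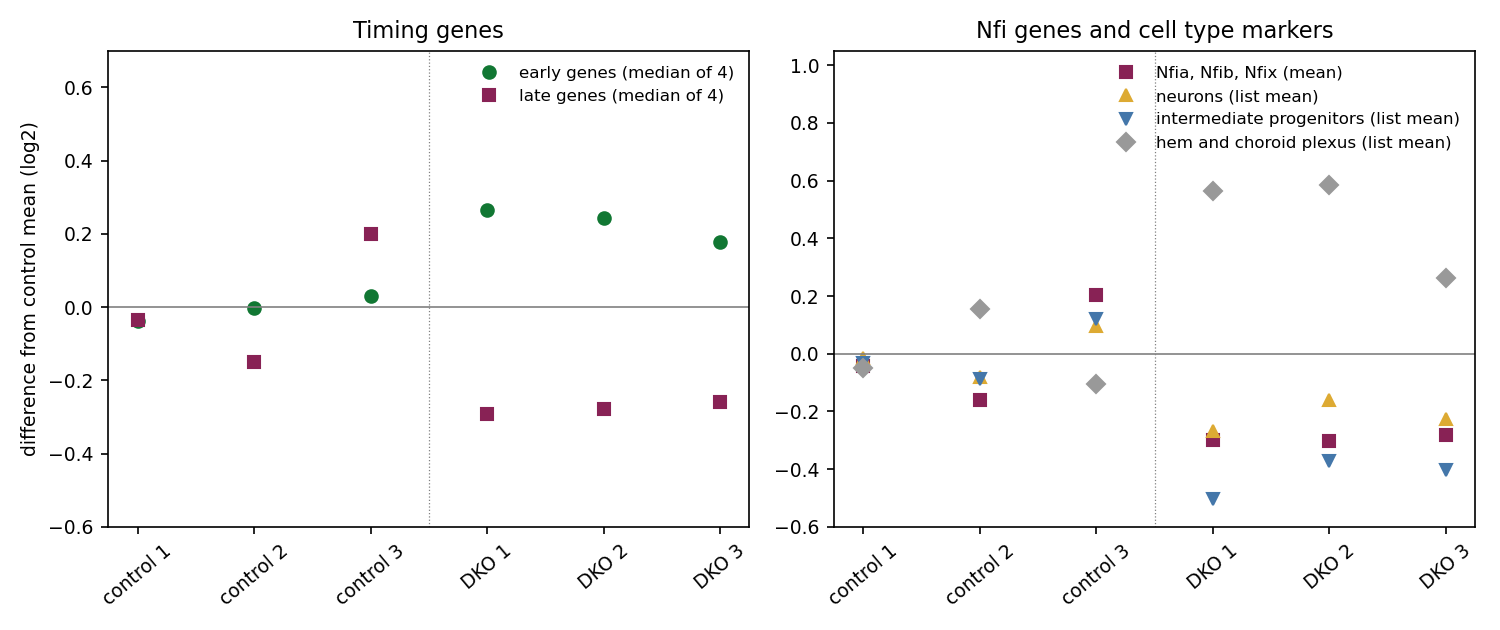
Left, the median difference of the early and of the late timing genes from the control mean in each array (log2). Right, the mean of Nfia, Nfib and Nfix and the list means of cell type markers on the same scale. The late genes and the neuron and intermediate progenitor markers are highest in control 3 and lower in all 3 DKO arrays, and hem and choroid plexus markers are higher in DKO.

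The let-7 miRNAs are the link between Lin28 and its targets, and miRNAs with the same seed are known to share targets. The mature 5p sequences below are those of let-7 and miR-99 loci whose rows were above the limit for dim rows, and of let-7c, whose Mirlet7c-1 locus had the largest difference among the dim ones. They are RefSeq sequences (GRCm38.p6), 5′ to 3′, with the seed (bases 2 to 8) in capitals:
mmu-let-7a-5p: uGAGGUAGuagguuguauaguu
mmu-let-7e-5p: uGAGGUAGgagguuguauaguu
mmu-let-7c-5p: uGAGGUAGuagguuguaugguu
mmu-miR-99a-5p: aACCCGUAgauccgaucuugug
mmu-miR-99b-5p: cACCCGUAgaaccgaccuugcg
The let-7 seed GAGGUAG was shared by 9 mature RefSeq sequences, let-7a to let-7g, let-7i and miR-98, and the seed ACCCGUA by miR-99a, miR-99b and miR-100.

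No let-7 locus passed the test. The rows report precursor or host transcripts and not the mature miRNA, so they do not show what Lin28 acts on. Of 12 let-7 family rows only 2 were above the limit for dim rows, Mirlet7a-1 and Mirlet7e. Mirlet7a-1 stood at 5.79, 5.70 and 5.79 in control and 5.85, 5.97 and 5.82 in DKO embryos, which do not overlap, with a difference of 0.12 ± 0.07 (SE; limma adjusted p 0.453). Mirlet7e had a log2 fold change of 0.03 ± 0.06 (SE). Over all 12 rows the log2 fold changes ran from -0.36 at Mirlet7c-1 to 0.12, and 8 were negative. Mirlet7c-1, below the limit at 4.61, 4.88 and 4.54 in control and 4.12, 4.47 and 4.35 in DKO embryos, had an adjusted p of 0.225 in the fit with no limit. Of the 6 tested loci of let-7, miR-99 and miR-100, none passed, and the nearest by p was Mir99b at -0.19 ± 0.09 (SE; limma adjusted p 0.343). By unadjusted limma p, 0 of these 6 were under 0.05.

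Among genes that make and turn over let-7, 1 of 16 fell, 0 rose and 15 did not pass, where 0.359% of all genes fell and 1.36% rose, and the list median was -0.02. Ago1, which encodes an Argonaute protein that carries miRNAs in the silencing complex, fell from 9.52, 9.49 and 9.67 in control to 9.15, 9.16 and 9.20 in DKO embryos. All DKO arrays lay below all controls, and the difference was -0.39 ± 0.07 (SE; limma adjusted p 0.0308). This call was lost whichever array was left out, with adjusted p up to 0.113. Ago4 was at -0.20 ± 0.10 (SE; limma adjusted p 0.371), and Khsrp, which encodes a splicing factor that promotes let-7 maturation, at -0.08 ± 0.07 (SE) with 0.653.

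Of 28 tested let-7 target genes, 2 rose and 0 fell, where 1.36% of all genes rose, and the list median was 0.01. Hmga2, also a let-7 target, rose but was not counted in this list. This list too was drawn up with earlier results of these data known. Thbs1, which encodes thrombospondin 1, rose from 7.66, 7.43 and 7.42 to 10.86, 10.62 and 10.73, a difference of 3.24 ± 0.09 (SE; limma adjusted p 2.83e-06). Irs2, an adaptor of insulin and IGF receptors, rose from 7.56, 7.66 and 7.77 to 9.07, 9.05 and 9.17, by 1.43 ± 0.07 (SE; limma adjusted p 1.52e-04). The third by p was Mycn, a Myc family gene of early progenitors, at 0.17 ± 0.07 (SE; limma adjusted p 0.334). The 26 that did not pass, Mycn among them, lay between -0.16 and 0.19, the highest being Cdc34, named after its value was seen. The part of let-7 in the Thbs1 and Irs2 differences was not tested.

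No other gene of early progenitors passed the test. Of 11 tested, 0 passed the limma test and 0 had an unadjusted p under 0.05. The means of 7 were lower in DKO, and the list ran from -0.15 to 0.17 with a median of -0.05. Trim71, an RNA-binding let-7 target of early embryos, was at 0.01 ± 0.08 (SE), Ccnd1, the G1 cyclin, at 0.12 ± 0.08 (SE) and Sall4, a zinc finger gene of pluripotent cells, at -0.10 ± 0.06 (SE). The smallest p values belonged to Mycn, Sall1 (-0.15 ± 0.08, SE) and Sall4. Of 9 tested RNAs bound by Igf2bp proteins, 1 rose and 0 fell, where 1.36% of all genes rose. The RNA that rose was Hmga2, itself a timing gene. Gli1, the Hedgehog target, was at -0.17 ± 0.10 (SE) and Actb, which encodes beta-actin, at -0.09 ± 0.06 (SE). Hmga2 is known to restrain the Ink4/Arf locus. Of 8 named Ink4 inhibitors and regulators of that locus, 2 had no row of their own. Of the 6 tested, 0 passed in limma and all means were lower in DKO. The part of Hmga2 in these differences was not tested. Of the 6, 1 had an unadjusted limma p under 0.05, where 2604 of 16724 genes had such a p. Cdkn2c, a cell cycle inhibitor of the Ink4 family, was lowest at -0.33 ± 0.07 (SE; limma adjusted p 0.0692).

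**Figure D4:**
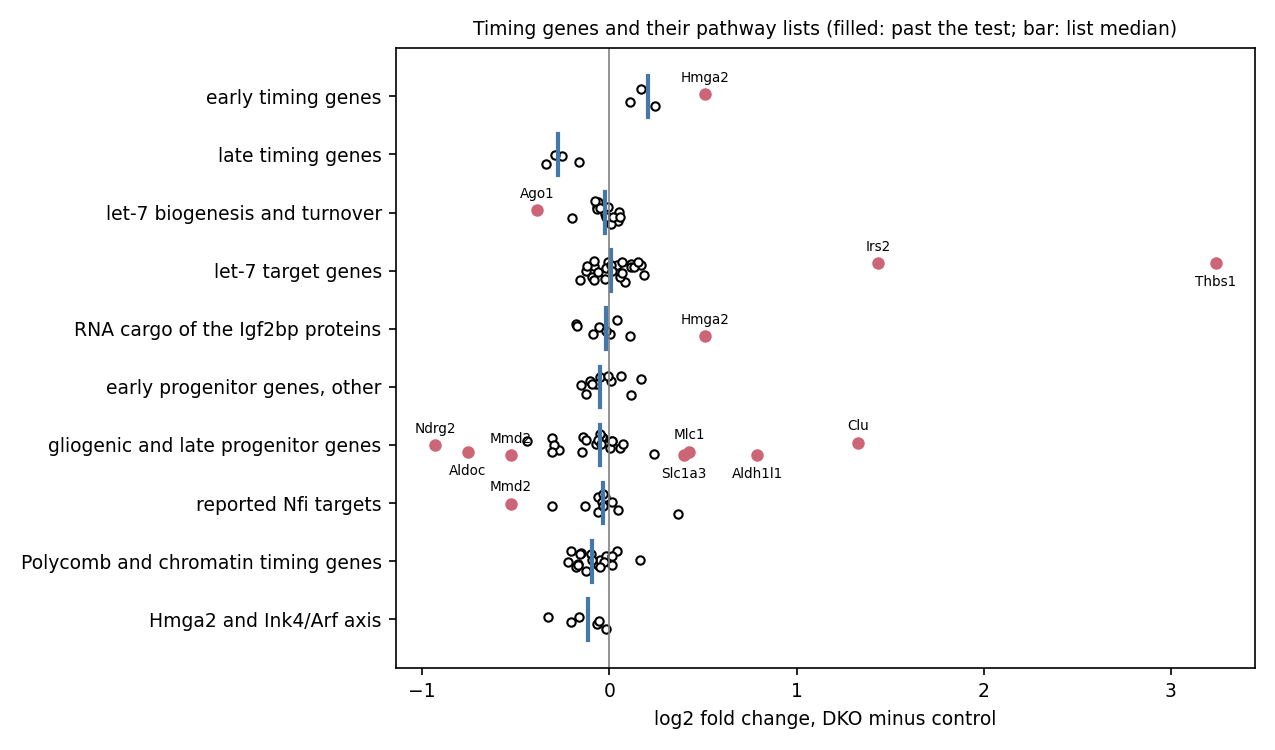
Log2 fold change (DKO minus control) of each tested gene in the timing groups and in the lists around them. Filled points passed the limma test over all genes and bars are list medians. Hmga2 is the filled early gene at 0.51, the late genes lie between -0.34 and -0.16, and gliogenic genes hold filled points on both sides of 0.

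Genes of late progenitors and glia went both ways. Of 27 tested, 4 rose, 3 fell and 20 did not pass, against 1.36% and 0.359% of all genes, and the median was -0.05. The list was drawn up with earlier results of these data known, so these counts are a description. Clu, which encodes the secreted chaperone clusterin, rose by 1.33 ± 0.10 (SE), Aldh1l1, an astrocyte folate enzyme, by 0.79 ± 0.14 (SE), Mlc1, an astrocyte membrane protein, by 0.43 ± 0.07 (SE) and Slc1a3, a glutamate transporter, by 0.40 ± 0.08 (SE). Ndrg2 had a log2 fold change of -0.93 ± 0.13 (SE), Aldoc, the brain aldolase, of -0.76 ± 0.10 (SE) and Mmd2, a gene induced by Nfia and Sox9 in glial precursors, of -0.53 ± 0.08 (SE). Clu and Aldoc stayed past the threshold whichever array was left out. Slc1a3 lost its call without any 1 array (limma adjusted p up to 0.147) and Aldh1l1 without any except DKO 1 (up to 0.123). Mlc1 lost it without control 1, control 3, DKO 1 or DKO 3 (up to 0.0972), and Ndrg2 without DKO 1 (0.0561) or DKO 3 (0.0525). For Mmd2 the limma adjusted p reached 0.0794. The number that rose was 1 with sex as a covariate, and between 1 and 2 without any 1 array.

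Mmd2 was also the only reported Nfi target that fell, of 12 tested, with 0 rising, where 0.359% of all genes fell and 1.36% rose. It stood at 9.75, 9.72 and 9.65 in control and 9.06, 9.33 and 9.16 in DKO embryos. Leaving out any 1 array except DKO 2 ended its call, which held without DKO 2 (adjusted p 0.00729). Sox9, the glial and progenitor factor that acts with Nfia, stood at 10.24, 10.16 and 10.27 in control and 9.88, 9.89 and 9.98 in DKO embryos, a difference of -0.31 ± 0.06 (SE; limma adjusted p 0.0581). Hes1, a Notch effector that Nfia represses, was higher at 0.37 ± 0.10 (SE; limma adjusted p 0.121). The means of 9 of the 12 were lower in DKO, and the list median was -0.04.

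Polycomb and chromatin regulators, some of which are known to time the end of neurogenesis, held no call. Of 19 tested, 0 passed in limma and 4 had an unadjusted p under 0.05, all lower, where 2604 of 16724 genes had such a p. Of the 19, 15 had a lower mean in DKO, and 7 had all DKO arrays below all controls where 13.4% of all genes did. The median was -0.09 against -0.03 over all genes. The smallest p values were those of Suz12, a core subunit of Polycomb repressive complex 2, at -0.22 ± 0.06 (SE; limma adjusted p 0.137), Chd7, a chromatin remodeller, at -0.18 ± 0.06 (SE) with 0.229, and the DNA methyltransferase Dnmt3a at -0.17 ± 0.06 (SE) with 0.253.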

How the data were processed

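The members and lists were chosen with earlier results of these data known. The deposited values are log2 signals made by RMA, per the submitters' processing notes; its version is not given in the sources used here. Because this method equalises the distributions of all arrays, a change common to all transcripts is not seen. From 41345 rows, 23521 had 1 gene symbol. Per gene the row with the highest mean was kept, and genes with a mean below the 25th percentile (5.02) were left out, leaving 16724. DKO was compared with control by limma 3.58.1 in R 4.3.3 (lmFit, eBayes, no covariate, Benjamini-Hochberg over all genes, called under 0.05), with scripts tested on simulated data. Single values also had an exact two-sided permutation test. With 3 arrays per group, precision is limited by their number. Genes named are all timing genes and relatives, Lats1 and Lats2, and for each list the genes called or the 3 with the smallest p; other names were chosen after their values were seen. The labels do not tie replicate numbers to litters, so no pairing was used in the main fit. Deviations of same-numbered samples correlated at -0.10, 0.21 and 0.15. Controls 2 and 3 were most like DKO 2 and DKO 3, and control 1 like DKO 3. With 3 arrays per group these values cannot show whether samples were paired. Upstream and miRNA sequences are RefSeq's (GRCm38.p6).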

Additional observations from a re-analysis of the deposited data

How the results depend on the processing

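Over 15 alternatives (filters, row choice, normalization, variance models, array weights, replicate block, sex covariate, 6 fits without 1 array), 0 of 118 timing gene values changed direction and 112 kept their side of the threshold. The 6 others were lost calls of Hmga2. With the replicate number as a block 0 timing genes rose, with an adjusted p of 0.112 for Hmga2, and 24 genes fell over all genes. With sex as a covariate 0 timing genes rose and 26 genes fell over all genes. Over all genes 228 rose and 60 fell; 134 fell with the stricter filter, 162 with a trended variance and 123 with array weights. Leaving out 1 array gave between 121 and 260 rises, between 11 and 54 falls, and between 0 and 1 timing genes that rose. With the stricter filter, which drops Lin28a and Lin28b, the early median was 0.34. Of 600 counts over the other lists, 52 moved by over 1.5 times or went to or from 0. A count that stayed at 0 was taken as unmoved. Without detection calls, dim rows such as Lin28b cannot be told from background.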
